A study of Mus musculus with 51 samples.

Results

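DMC1 is the recombinase that coats the single-stranded DNA at meiotic double-strand breaks, so its chromatin immunoprecipitation maps where breaks were made and are under repair. The 2 break maps described here come from whole testis of mice 6 weeks old, 1 list of DMC1 peaks from males heterozygous for Hells (label Hells het) and 1 from Hells conditional knockouts (label Hells CKO). Members are all peaks of both lists on the 19 autosomes: 14759 in the het list and 13965 in the CKO list, 28724 of the 30523 DMC1 peaks in all, the remainder lying on chromosome X. Each list merges 2 DMC1 libraries of its genotype, and neither gives a height or a value per library. The genotypes could therefore be compared by position and width only, without a test across animals, and the intervals below are exact 95% binomial intervals that cover counting error only.

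The series, 51 samples of mouse male germ cells and testis, measured histone marks, open chromatin and protein binding at recombination sites. Beside the DMC1 lists, use was made of ATAC-seq counts (3 Hells CKO and 2 Hells wt libraries, 2 C57BL/6J and 2 B6-Prdm9CAST-KI libraries), of H3K4me3 ChIP-seq counts (3 Hells CKO, 1 Hells wt, 1 Spo11/+ and 2 Spo11/Spo11 libraries), of an 11-state chromatin segmentation built on C57BL/6J histone marks, and of HELLS binding peaks of B6-Prdm9CAST-KI testis. B6-Prdm9CAST-KI carries the CAST allele of Prdm9 in place of the C57BL/6J allele, and Spo11 encodes the enzyme that makes the breaks. Those libraries came from males 12 to 14 days old, the ATAC and histone ones from enriched germ cells, so they differ from the DMC1 maps in age and, in part, in tissue. The control for DMC1 was heterozygous and that for ATAC and H3K4me3 was labelled wt. The labels state neither the Cre driver nor the deleted part of Hells, nor whether libraries of a group came from separate animals. The bulk lists cannot tell fewer cells with breaks at a site from fewer breaks per cell.

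In mice, PRDM9 binds DNA through its zinc fingers and trimethylates H3K4 on nearby nucleosomes, and most breaks of the wild type form at these sites. HELLS is an SNF2-family chromatin remodeller that associates with PRDM9. In mice without PRDM9, breaks are known to form instead at other H3K4me3 sites, among them promoters.

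The sequences below show the 2 kinds of site. They are reference sequence of GRCm38 (mm10) from inside named peaks. The first 3 belong to het-only peaks (no CKO peak overlaps them) and the next 3 to peaks that both lists hold; each of these peaks was among the 3 with the lowest p for H3K4me3 loss in its class. In the first 6, capitals mark the match to the 9-letter motif GNTGCTNCT that is nearest the peak centre, where one lies within 250 bp of it (the Prag1 stretch holds another match, in lower case); the strand shown is the one that reads the motif in this direction. The peak of the first lies in an intron of Gm14342, that of the second in an exon of Prag1, and that of the third in an intron of Megf11. The shared ones lie in introns of Sptbn5, E230016K23Rik and Tti1. The last 3 belong to CKO-only sites, with every CG in capitals: an intronic site of Slc7a11, and the 100 bases before the first annotated start of Prdm9 and of Dmc1, both covered by a CKO peak.
Gm14342, het only, chr2:180880912-180881011, plus strand: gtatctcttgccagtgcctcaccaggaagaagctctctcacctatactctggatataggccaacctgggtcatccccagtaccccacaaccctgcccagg
Prag1, het only, chr8:36139822-36139921, minus strand: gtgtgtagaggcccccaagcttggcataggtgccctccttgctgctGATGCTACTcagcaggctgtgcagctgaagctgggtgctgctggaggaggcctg
Megf11, het only, chr9:64611317-64611416, plus strand: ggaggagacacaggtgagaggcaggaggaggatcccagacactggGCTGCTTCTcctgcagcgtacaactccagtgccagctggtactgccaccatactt
Sptbn5, shared, chr2:120066323-120066422, plus strand: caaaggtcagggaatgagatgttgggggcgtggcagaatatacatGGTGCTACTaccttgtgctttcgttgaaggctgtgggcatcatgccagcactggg
E230016K23Rik, shared, chr11:83585724-83585823, plus strand: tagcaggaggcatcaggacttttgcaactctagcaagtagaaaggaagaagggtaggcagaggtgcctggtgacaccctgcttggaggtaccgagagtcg
Tti1, shared, chr2:157989590-157989689, plus strand: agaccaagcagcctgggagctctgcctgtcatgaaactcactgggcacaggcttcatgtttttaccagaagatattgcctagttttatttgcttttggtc
Slc7a11, CKO only, chr3:50382133-50382232, plus strand: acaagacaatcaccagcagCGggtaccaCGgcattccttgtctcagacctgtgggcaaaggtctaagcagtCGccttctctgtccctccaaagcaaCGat
Prdm9 promoter, CKO only, chr17:15564355-15564454, minus strand: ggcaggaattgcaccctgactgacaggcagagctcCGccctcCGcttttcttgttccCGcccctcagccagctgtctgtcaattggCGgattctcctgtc
Dmc1 promoter, CKO only, chr15:79605110-79605209, minus strand: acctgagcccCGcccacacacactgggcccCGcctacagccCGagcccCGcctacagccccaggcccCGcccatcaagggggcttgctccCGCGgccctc
The Prag1, Megf11 and Sptbn5 sites hold their nearest match 213, 89 and 2 bp from the peak centre, and the other three of these 6 hold none within that distance. The Slc7a11, Prdm9 and Dmc1 stretches hold 4, 4 and 7 CGs in 100 bases. Slc7a11 had the lowest p for higher H3K4me3 in CKO among CKO-only sites. The sites ranked 2 and 3 by that rule, both at promoters and not printed, hold 1 CG each in their central 100 bases. Their GC content there is 40% and 44%, so the printed stretches are not typical of every CKO-only site.

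The break map of the knockout shared few positions with that of the heterozygote. Of the het peaks, 1610 (10.9%, interval 10.4 to 11.4) overlapped a CKO peak by at least 1 bp, and of the CKO peaks 1568 (11.2%, interval 10.7 to 11.8) overlapped a het peak. This left 13149 het-only and 12397 CKO-only peaks. The lists were alike in number and in covered length, 31.2 Mb for het and 29.5 Mb for CKO. With an overlap required to span the larger part of both peaks, 1.91% of het and 2.02% of CKO peaks were shared, and with centres within 500 bp 7.44% and 7.86%.

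Het-only peaks lay away from promoters and CKO-only peaks lay on them. A promoter was taken as 1000 bp on either side of an annotated transcript start (GENCODE M21, mm10). CKO-only peaks overlapped a promoter in 8361 of 12397 cases (67.4%, interval 66.6 to 68.3), against 1526 of 13149 het-only peaks (11.6%, interval 11.1 to 12.2). By peak centre, 64.5% of CKO-only peaks fell in promoters, which hold 6.11% of the autosomal genome; the same share for het-only peaks was 6.21%, close to that of the genome. Het-only centres lay in introns in 48.2% of cases, in intergenic sequence in 40.5% and in exons in 5.07%, where the genome has 39.3%, 51.3% and 3.28%. Of CKO-only centres, 54.9% were within 500 bp of a start, against 3.38% of het-only ones. Those within 1000 bp of a start sat mostly on its downstream side (66.1%), at a median of 83 bp into the gene.

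The lists also differed in chromatin state. State 7 covers 0.584% of the segmented autosomes in 16659 segments, of which 10% overlap a promoter. It held the centre of 9363 het-only peaks (71.2%, interval 70.4 to 72.0) and of 40 CKO-only peaks (0.323%). Over the whole het list it held 69.0% of centres, but it was the state covering most bases for 40.1% of het peaks. States 1 and 2 (1.73% and 1.29% of the genome, with 52.4% and 33% of their segments at promoters) held 68% and 26.7% of CKO-only centres, against 3.32% and 3.41% of het-only ones. The segments' view gave the same split: 65.9% of state 7 segments overlapped a het peak and 5.43% a CKO peak, and 32.5% of state 1 segments overlapped a CKO peak and 3.96% a het peak.

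**Figure D1:**
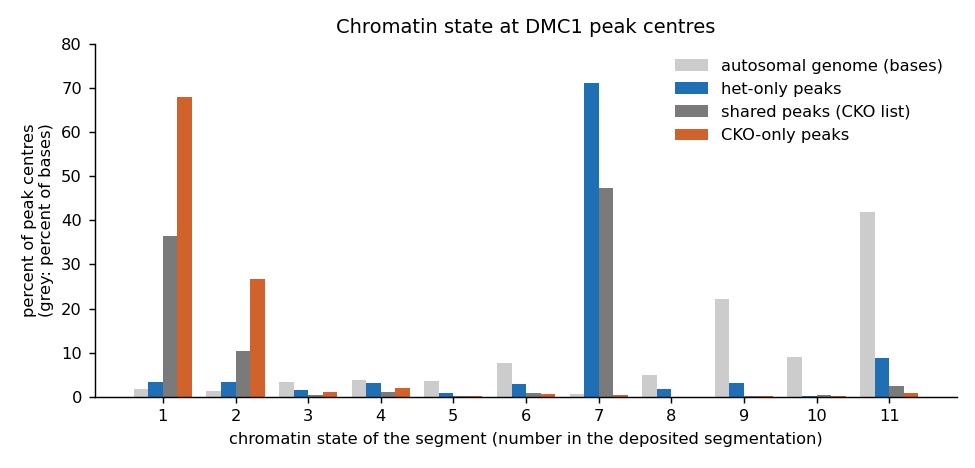
Bars give the percent of DMC1 peak centres in each of the 11 chromatin states for het-only, shared (CKO list) and CKO-only peaks, with the percent of autosomal bases in grey. Het-only peaks stand in state 7 (71.2%), CKO-only peaks in states 1 and 2 (68% and 26.7%), and shared peaks in both.

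CKO-only peaks away from promoters were also mostly in states 1 and 2, but in other proportions than those on promoters. Of 4036 such peaks off promoters, 3583 (88.8%, interval 87.8 to 89.7) had their centre in state 1 or 2, and 31 in state 7. State 1 held 1828 and state 2 1755 of them, against 6597 and 1557 of the 8361 on promoters. Counted together, 11944 of 12397 CKO-only peaks (96.3%, interval 96.0 to 96.7) were at a promoter or in state 1 or 2. Conversely, 1028 of the 1526 het-only peaks that touched a promoter had their centre in state 7 rather than in state 1 or 2, which held 224.

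A CKO peak was more frequent the more H3K4me3 a promoter carried in the knockout. Promoter regions of the H3K4me3 table were sorted into deciles by their mean CPM (counts scaled to the total of their library) over the 3 CKO libraries. In the lowest decile, below 1.87 CPM, 83 of 2379 regions (3.49%, interval 2.79 to 4.31) overlapped a CKO peak. The share was 18.8% in decile 4, 49% in the seventh and 79.9% (interval 78.2 to 81.5) in the highest, above 74 CPM. With each CKO library on its own the highest decile held 84.6%, 77.6% and 74.5%. Het peaks were at 38.8% of the lowest decile and at 2.9% to 8.53% of the others. This order is by the CKO level and says nothing of the level in wt. Het-only promoter regions had a median of 3.79 CPM in wt and 0.653, 1.03 and 0.697 CPM in CKO. Region length rose along with the level, from a median of 793 bp to 4373 bp, and its part in these shares was not tested. Among H3K4me3 regions with neither a promoter nor a het peak, the share with a CKO peak also went up with the level, from 0.408% in the lowest decile to 37.8% in the highest, which starts at 12 CPM.

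**Figure D2:**
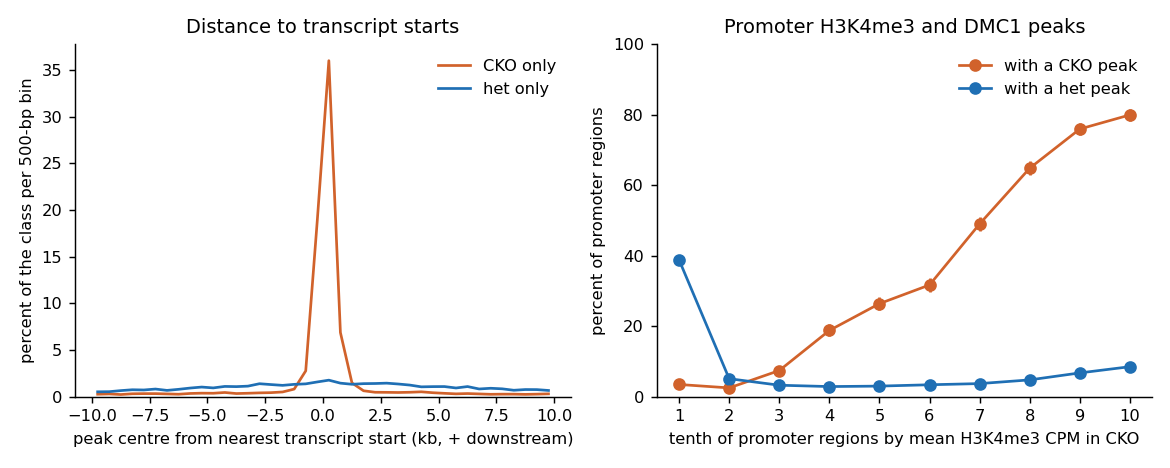
Left, percent of het-only and CKO-only peaks per 500-bp bin of distance from the peak centre to the nearest transcript start. Right, percent of promoter regions with a CKO or a het peak by decile of mean H3K4me3 CPM in the 3 CKO libraries, with exact 95% intervals; the CKO share climbs from 3.49% to 79.9%.

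Of 20779 protein-coding genes, 8426 (40.6%) had a CKO peak at their promoter and 1446 (6.96%) a het peak; the lists below are read beside these shares, and no difference between lists was tested. All 13 break-formation genes found on autosomes had a CKO peak (interval 75.3 to 100), among them Spo11, the break enzyme, its partners Mei4 and Rec114, and Hormad1 of the chromosome axis. Of 21 genes of strand invasion and crossover 18 had one (interval 63.7 to 97), among them Dmc1, the meiotic strand-exchange recombinase, and Msh4, which acts in crossover formation; Brca2, Mlh3 and Msh5 had none. Of 13 genes of the synaptonemal complex and meiotic cohesin 12 had one (interval 64 to 99.8), with Smc1b the exception. Meiotic entry genes gave 5 of 7, including Stra8, Dazl and Meioc, with an interval of 29 to 96.3 that holds the share of all protein-coding genes. In each of these 4 lists, the het list touched at most 2 promoters.

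A list of 13 genes held Prdm9, Hells, readers of H3K4me3 and other chromatin genes such as Ehmt1 and Uhrf1. Of these, 10 had a CKO peak and 5 a het peak. Those with both were Ehmt1, Hells, Morc2a, Uhrf1 and Zcwpw1, the last a reader of the marks that PRDM9 makes. At Morc2a and Uhrf1 the het and CKO promoter peaks lay apart, at different annotated starts. The Morc2a het peak was nevertheless a shared one, overlapped by another CKO peak, and that of Uhrf1 was het only. Of 11 genes of DNA methylation and silencing 6 had a CKO peak and 2 a het peak.

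Markers of other germ cell stages had shares near that of all protein-coding genes. Spermatogonial markers had a CKO peak at 8 of 18 promoters (interval 21.5 to 69.2), and pachytene and spermatid markers at 8 of 20 (interval 19.1 to 63.9), with the protamine and transition-protein genes Prm1, Prm2, Tnp1 and Tnp2 among those without. Sertoli cell markers gave 2 of 10 (Ctsl and Nr5a1; interval 2.52 to 55.6), Leydig cell markers 0 of 7 (interval 0 to 41%), and blood and macrophage markers 1 of 7 (Cd3e; interval 0.361 to 57.9). Housekeeping genes gave 11 of 15. No RNA was measured, so these counts speak of promoters alone.

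Gene families showed the same spread. CKO peaks stood at 69 of 89 ribosomal protein promoters, 52 of 67 replication-dependent histone promoters, 30 of 39 proteasome promoters and 212 of 383 Zfp (zinc finger) promoters. Of 39 Hox promoters 5 had one, and of 53 keratin promoters 1. Olfactory receptor promoters were the reverse case, with 8 of 1086 (0.737%, interval 0.319 to 1.45) in the CKO list and 26 (2.39%, interval 1.57 to 3.49) in the het list. Vomeronasal receptors gave 2 of 325 for CKO and 7 for het. Among lincRNA genes 10.6% had a CKO peak and 3.50% a het peak. Near-identical family members share reads, so peaks at single copies of the histone and receptor clusters are uncertain. Of 24 imprinted genes 16 had a CKO peak, and H19 alone had a het peak only, 1168 bp wide, with its centre in state 7.

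The genes of the hotspot machinery were themselves marked. The Prdm9 promoter held a CKO-only peak of 2391 bp at chr17:15562728-15565118, the Dmc1 promoter one of 1680 bp at chr15:79604059-79605738, and the Spo11 promoter one of 3004 bp at chr2:172978622-172981625. The Hells promoter was in both lists, with a CKO peak of 4731 bp (chr19:38928860-38933590) and a het peak of 1091 bp inside it. H3K4me3 at the Prdm9 promoter was 116, 61.7 and 69.9 CPM in the 3 Hells CKO libraries and 55.4 CPM in the Hells wt one, 82.2 CPM in Spo11/+ and 78.5 and 75.5 CPM in Spo11/Spo11, taken at the region with the highest level. All 3 CKO libraries lie above wt and on both sides of the Spo11 libraries (log2 fold change CKO against wt 0.57, SE 0.34, adjusted p = 0.436 by edgeR's quasi-likelihood test). At the Dmc1 promoter the values were 51.7, 41.7 and 37.1 CPM in CKO against 37.3 CPM in wt, and at the Spo11 promoter 16.3, 15.3 and 9.02 CPM against 17.4 CPM, with adjusted p of 0.761 and 0.642 in the same edgeR test.

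The peaks found in both lists fell mainly into state 7 and state 1. Of the 1568 shared CKO peaks, 744 (47.4%) had their centre in state 7 and 573 (36.5%) in state 1. State 7 of the CKO list consisted almost wholly of such peaks: 744 of the 784 CKO peaks there (94.9%, interval 93.1 to 96.3) overlapped a het peak. In state 1, by contrast, 573 of 8998 CKO peaks (6.37%) did so. Seen from the het list, 825 of 10188 state 7 peaks (8.10%) and 500 of 936 state 1 peaks (53.4%, interval 50.2 to 56.7) were shared.

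In state 7, the het peaks that the CKO list also held were the widest. The median width was 3728 bp (quartiles 3421 and 4076) for the 825 shared and 2202 bp (quartiles 1573 and 2827) for the 9363 het-only peaks. Sorted into deciles by width, het state 7 peaks were found again in CKO in 0.294% of cases in the narrowest decile (800 to 1200 bp) and in at most 1.28% up to the seventh. The share was 3.93% in the eighth, 15.9% in the ninth and 56.9% (interval 53.8 to 60.0) in the widest decile, 3495 to 8524 bp. Wide peaks overlap others more readily, so the count was repeated with centres within 500 bp of each other, an alternative chosen after seeing the data, and 52.4% of the widest decile and 0.0981% of the narrowest had a CKO partner. Of the 1050 state 7 segments over 1600 bp, 40.2% overlapped a CKO peak, against 1.04% of those up to 400 bp. Longer segments overlap any peak more readily, and segments were not counted by centre distance. Between the same lengths, the share with a het peak rose from 24.9% to 97.9% in state 7. In state 1 the share with a CKO peak rose from 12.7% to 62.6%.

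At those sites the CKO peaks were narrow. In the 732 overlapping pairs with both centres in state 7, the het peak had a median width of 3771 bp and the CKO peak of 1245 bp, the het one was the wider in 99.7% of pairs, and the centres lay a median of 158.5 bp apart. In the 436 pairs with both centres in state 1 the order was the opposite, with medians of 1459 bp for het and 3519 bp for CKO, and the het peak was the wider in 16.5%. Width is the list's only measure per peak. It depends on depth and on the merging of 2 libraries, which the lists do not allow to be separated.

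**Figure D3:**
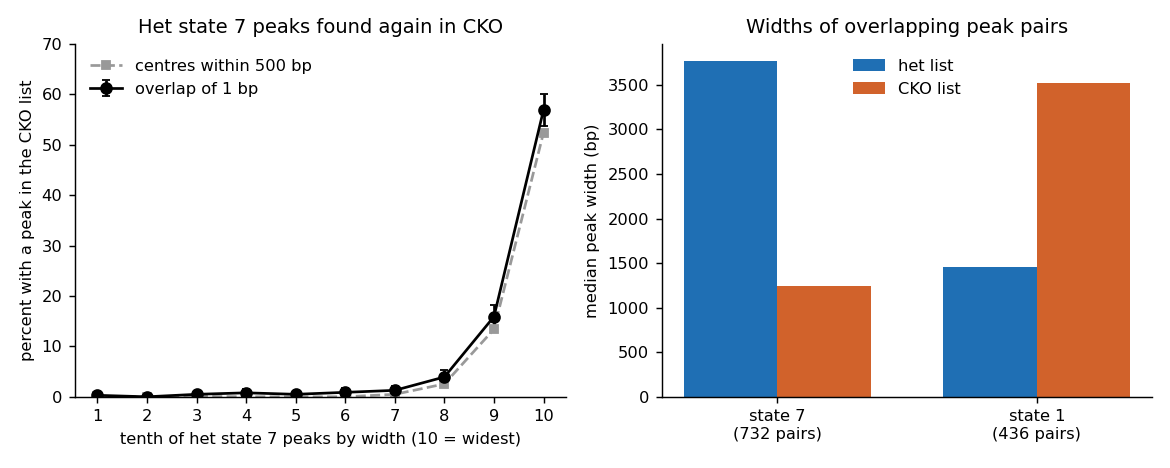
Left, percent of het state 7 peaks with a CKO peak by decile of het width, with exact 95% intervals, by overlap and by centre distance; the share reaches 56.9% in the widest decile. Right, median widths in the overlapping pairs, 3771 bp (het) and 1245 bp (CKO) in state 7, and 1459 bp and 3519 bp in state 1.

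The share found again in CKO also rose with H3K4me3, measured in libraries that the lists did not use. Het state 7 peaks off promoters were sorted by their summed level in the Spo11/+ library: 0.238% of the lowest decile (2 of 839) and 37.4% (313 of 838, interval 34.1 to 40.7) of the highest, above 15.1 CPM, were shared. The median width of the peaks rose along with this level, from 1538 bp to 3482 bp, and its part in these shares was not tested. Within the widest decile of these peaks, 476 shared ones with a region had a median of 16.3 CPM in Spo11/+ and 7.12 CPM in Hells wt, and 423 het-only ones 13.1 and 5.88 CPM. In the 3 Hells CKO libraries the medians were 1.68, 1.65 and 0.88 CPM for the shared and 1.15, 1.34 and 0.77 CPM for the het-only ones. Shared peaks of this decile were still the wider, with a median of 3874 bp against 3638 bp.

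Het-only sites off promoters, above all those in state 7, had less H3K4me3 in the knockout at 12 to 14 days. Over all 78959 tested regions, 9223 were lower in CKO than in wt (11.7%) and 22 were higher (0.0279%). The H3K4me3 table holds a region for 77.6% of het-only peaks off promoters, 91.6% of the shared ones, and 96.8% and 95.1% of CKO-only peaks on and off promoters. Of the 10098 regions that overlapped a het-only peak off promoters (all passed the filter on low counts), 6652 were lower and 0 higher, and the log2 fold change had a median of -2.30, between quartiles of -2.67 and -1.82, beside -0.02 over all regions tested. In state 7, 6273 of 8268 were lower (median -2.40), and in states 1 and 2 186 of 956 (median -0.68). The loss was not confined to sites with a DMC1 peak. Of 1805 tested state 7 regions off promoters in neither list, 521 were lower and 0 higher (28.9% lower, median -1.77). Of 1218 het-only regions on promoters 666 were lower and 1 higher (median -2.07). DESeq2 called 5706 of the 10098 off promoters lower. At unadjusted p under 0.05, 8567 of these were lower and 6 higher. Their median level was 2.27 CPM in the wt library, 3.86 CPM in Spo11/+, 3.02 and 3.16 CPM in Spo11/Spo11, and 0.373, 0.671 and 0.403 CPM in CKO. Every CKO library was below every other one, and both Spo11/Spo11 libraries lay between wt and Spo11/+.

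Sites in both lists had less H3K4me3 in the knockout where they lay in state 7, and not as a group elsewhere. Of 964 such regions off promoters 699 were lower and 0 higher (median -2.19). Their median level was 6.66 CPM in wt, 13.9 CPM in Spo11/+, 11.7 and 11.9 CPM in Spo11/Spo11, and 1.65, 1.60 and 0.953 CPM in CKO. In each of the 3 CKO libraries this median was above that of het-only sites off promoters. Of the 710 in state 7, 674 were lower (median -2.35), and of the 230 in states 1 and 2, 21 were (median -0.11). Of the 694 regions in both lists on promoters 93 were lower and 0 higher (median 0.32).

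**Figure D4:**
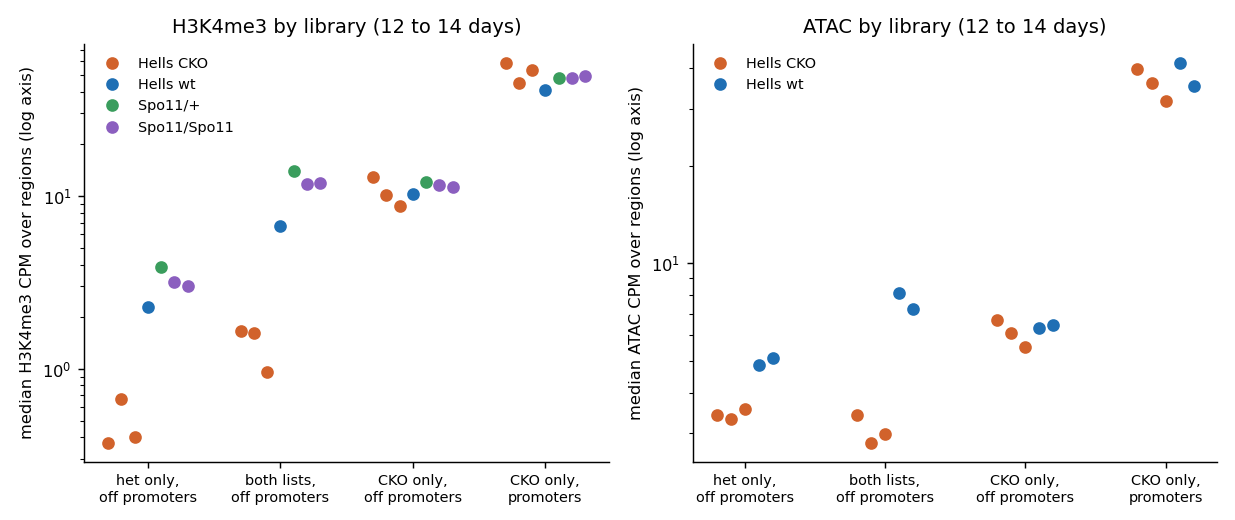
Points give the median CPM of each library over the regions of a class, for H3K4me3 (left) and ATAC (right), on log axes. All CKO libraries lie below all others at het-only sites and at sites in both lists off promoters, but not at CKO-only sites.

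CKO-only sites carried H3K4me3 in both genotypes. At the 7869 regions on promoters the medians were 58.8, 45.3 and 53.9 CPM in CKO, 40.8 CPM in wt, 48.4 CPM in Spo11/+ and 47.9 and 49.3 CPM in Spo11/Spo11, so that all 3 CKO libraries lie above the single wt one and on both sides of the Spo11 libraries. By edgeR 0 were higher and 0 lower, with 369 higher and 7 lower at unadjusted p under 0.05, while DESeq2 called 516 higher and 0 lower, and edgeR without CKO replicate 2 called 1517 higher and without CKO replicate 1 called 10 higher and 15 lower. The median log2 fold change at these promoters was 0.35, and 0.19 to 0.48 over all settings tried. Over all 78959 regions tested, DESeq2 called 1042 higher and 7802 lower. At unadjusted p under 0.05, edgeR had 1497 higher and 12781 lower over all regions. Counts of higher regions with 1 library left out were not taken over all regions. At the 3713 regions off promoters 1 was higher and 2 lower (median 0.05), with 8.80 to 12.8 CPM in CKO and 10.3 CPM in wt. Scaling alone moved the median over all regions from -0.02 to 0.09 (RLE) or -0.17 (library size alone).

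Single regions show the size of the loss. In the Gm14342 intron (peak at chr2:180880220-180881703, het only, 1484 bp) H3K4me3 was 0.995, 0.877 and 0.843 CPM in the CKO libraries, 11.5 CPM in wt, 20.7 CPM in Spo11/+, and 19 and 14.3 CPM in Spo11/Spo11. The CKO values lie far below the other 4, and the log2 fold change against wt was -3.66 (SE 0.27, edgeR adjusted p = 0.000335). In the Sptbn5 intron (chr2:120064298-120068441, both lists, 4144 bp) it was 5.10, 3.97 and 3.85 CPM in CKO, 31.5 CPM in wt, 49.7 CPM in Spo11/+, and 53.0 and 46.9 CPM in Spo11/Spo11. The change there was -2.86 (SE 0.22, edgeR adjusted p = 0.000335), again with no overlap. At the CKO-only site in the Slc7a11 intron (chr3:50381661-50382704) the level was 30.3, 17.5 and 22.1 CPM in CKO and 10.3 CPM in wt, but 18.7 to 19.5 CPM in the Spo11 libraries. The CKO values straddle the latter (log2 fold change 1.17, SE 0.32, edgeR adjusted p = 0.0318, up to 0.0998 with 1 library left out).

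The other regions with the lowest p were alike in kind. H3K4me3 in the Prag1 exon was 0.777, 0.774 and 0.953 CPM in CKO and 10.3 CPM in wt, and in the Megf11 intron 0.871, 0.826 and 0.733 CPM in CKO and 9.07 CPM in wt. The CKO values of both lie far below wt, with log2 fold changes of -3.62 and -3.48. The sites in E230016K23Rik and Tti1, present in both lists, fell by 2.98 and 2.66 on the log2 scale. Calls the other way were few: at het-only peaks the only named region past the threshold was the promoter of Pde1a, a cyclic nucleotide phosphodiesterase gene, with 34.8, 20.5 and 25.5 CPM in CKO and 12.7 CPM in wt (1.09, SE 0.31, edgeR adjusted p = 0.0412, up to 0.118 with 1 library left out). At CKO-only peaks, exonic sites of Rreb1 (8.27, 9.60 and 9.20 CPM in CKO and 18.7 CPM in wt) and Marveld2 (6.19, 8.77 and 7.08 CPM and 13.7 CPM) were lower. Their edgeR adjusted p were 0.00713 and 0.0392, and up to 0.0214 and 0.0938 with 1 library left out.

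ATAC signal was lower in the knockout at a part of the het list's sites, off promoters nearly all of them in state 7. An ATAC region of the Hells table overlapped 16.4% of het-only peaks off promoters (interval 15.7 to 17.1) and 55.5% of shared het peaks off promoters (interval 52.2 to 58.7), against 90.3% of CKO-only peaks on promoters and 50.4% of those off them. Over all 95033 tested regions 363 were lower in CKO (0.382%) and 0 higher (0%); at unadjusted p under 0.05 there were 1318 and 150, and by DESeq2 424 and 0. Of 2283 tested regions at het-only sites off promoters 121 were lower (median -0.22), and of 548 at sites in both lists off promoters 193 were (median -1.42), beside a median of 0.01 over all regions tested. In state 7 off promoters 119 of 1098 het-only regions (median -0.99) and 189 of 401 in both lists (median -1.64) were lower, and in states 1 and 2 it was 1 of 441 (median -0.06) and 4 of 130 (median -0.17). On promoters 15 of 426 het-only regions (median -0.14) and 26 of 516 in both lists (median -0.15) were lower. Of 2272 and 7534 regions at CKO-only sites off and on promoters, 0 were lower and 0 higher by edgeR and on promoters also by DESeq2; at unadjusted p under 0.05, 15 and 3 were lower and 0 and 1 higher. All 363 calls were lost without CKO replicate 3 (0 remained), though the median at sites in both lists off promoters stayed between -1.53 and -1.26 under every setting. Without wt replicate 1, 132 regions were lower, without CKO replicate 1 626 were, and with the number series of the library names as a block 1197 were.

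At sites in both lists off promoters the median level was 8.10 and 7.23 CPM in the 2 wt libraries and 3.41, 2.80 and 2.97 CPM in the 3 CKO ones, with no overlap. At those on promoters it was 48.8 and 39.6 CPM in wt and 45, 39.9 and 35.4 CPM in CKO, and the groups overlap. The region with the lowest p lay between genes on chromosome 2 (peak at chr2:179248876-179252492, state 7, 10194 bp from the start of Gm14293), with 32.9 and 24.9 CPM in wt and 6.25, 4.98 and 6.06 CPM in CKO (log2 fold change -2.32, SE 0.25, edgeR adjusted p = 0.00411, up to 0.309 with 1 library left out). The het-only region with the lowest p, also intergenic and in state 7 (peak at chr6:147648117-147651890), had 32.4 and 23.3 CPM in wt and 7.39, 5.16 and 6.81 CPM in CKO. A het-only peak at the promoter of the olfactory receptor gene Olfr801 (chr10:129673295-129676649, state 7) had 21.6 and 16.6 CPM in wt and 5, 3.15 and 3.03 CPM in CKO. Neither pair of groups overlaps (log2 fold changes -2.11 and -2.35, edgeR adjusted p = 0.00411 and 0.00438, both 0.309 without CKO replicate 3). At CKO-only promoters the median was 41.5 and 35.2 CPM in wt and 39.7, 35.9 and 31.7 CPM in CKO, and the groups overlapped.

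Sites of the het list in state 7 also had less open chromatin in mice with the CAST allele of Prdm9. Over all 81887 regions of the second ATAC table, 1856 were lower in B6-Prdm9CAST-KI than in C57BL/6J (2.27%) and 5847 higher (7.14%). Of 2863 regions at het-only sites off promoters 1103 were lower and 116 higher (median -0.86), and of 732 at sites in both lists off promoters 466 were lower and 2 higher (median -1.47). In state 7 it was 1046 of 1847 and 452 of 529, and in states 1 and 2 it was 54 of 503 and 14 of 181. On promoters 130 of 440 het-only regions and 49 of 556 in both lists were lower. Of 3607 at CKO-only sites off promoters 1 was lower and 29 higher (median -0.03), and of 7909 on promoters 8 were lower and 5 higher (median -0.18), beside a median of 0.02 over all. At the sites in both lists off promoters the C57BL/6J libraries had medians of 6.46 and 4.85 CPM and the knock-in ones 2.06 and 2.16 CPM, with no overlap. The counts moved with single libraries. At het-only sites 1703 were lower without C57BL/6J replicate 2, and 568 and 691 without knock-in replicates 1 and 2. At CKO-only promoters 1047 and 2908 were lower without C57BL/6J replicates 1 and 2, and 0 without either knock-in library. Over all regions 7789 were lower without C57BL/6J replicate 2, 8439 without replicate 1, and 1060 and 1231 without knock-in replicates 1 and 2.

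HELLS binding in testis with the CAST allele met the CKO map at promoters. Of 2661 autosomal HELLS peaks, 1039 (39.0%, interval 37.2 to 40.9) overlapped a CKO DMC1 peak and 86 (3.23%) a het one. Of the 1382 HELLS peaks at promoters 1012 (73.2%) overlapped a CKO peak, and of the 1279 off promoters 27 (2.11%). Among all protein-coding genes 40.6% had a CKO peak at their promoter, and 79.9% of promoter regions in the highest H3K4me3 decile overlapped one. Seen from the CKO list, 917 of 8361 CKO-only promoter peaks (11.0%) and 81 of 630 shared ones (12.9%) overlapped a HELLS peak. HELLS binding was mapped with the CAST allele only, with which many het sites off promoters had less open chromatin. There 1103 of 2863 het-only regions were lower and 116 higher, and of 732 in both lists 466 were lower and 2 higher. HELLS binding at het sites in mice of the Hells lines was not measured. The part of the allele in these shares was not tested.

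Base composition differed between the classes at the peak centre. The central 200 bp had a median GC content of 43% (quartiles 38 and 48) at het-only peaks off promoters and 42% at shared ones of the het list, 49.5% at CKO-only peaks off promoters and 61% (quartiles 52 and 69.5) on promoters. The same windows held a median of 1, 1, 5 and 13 CpG. Values over the central 500 bp differed by at most 1 percentage point of GC.

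A sequence motif was more frequent at het centres than at CKO-only centres. The leading 8-letter word within 100 bp of het-only centres off promoters, found on odd-numbered autosomes against flanks 1000 bp away, was GCAGCAGC (both strands). On even-numbered autosomes it was in 5.27% of these centres (interval 4.71 to 5.89) and in 1.19% of their flanks. This word alone did not set the het-only centres apart from CKO-only promoters. There it was in 4.85% of centres (interval 4.19 to 5.57) and 1.69% of flanks, and off promoters in 2.30% (interval 1.71 to 3.03) and 0.99%. Several of the next words, among them GATGCTGC, GCAGCACC and GATGCTAC, read as forms of 1 motif, GNTGCTNCT, which was written down after these words had been seen and was searched on both strands. It was in 12.5% (706 of 5651, interval 11.6 to 13.4) of het-only centres off promoters on even-numbered autosomes and in 3.47% of the flanks, and in 12.8% of shared het centres off promoters on all autosomes against 2.93% of flanks. CKO-only centres had it in 5.75% (interval 5.26 to 6.27) on promoters and 5.38% (interval 4.70 to 6.12) off them, with 3.50% and 3.38% in their flanks, where 200-bp windows at all annotated starts had it in 5.96% and windows spread over the autosomes in 3.64%. Among het state 7 peaks off promoters the share ran from 11.0% to 17.6% over deciles of width, without an order. A match is a string of letters, not a shown binding site. At CKO-only promoters the leading word was CCCGCCCC (11.0% of centres and 2.94% of flanks on even-numbered autosomes).

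**Figure D5:**
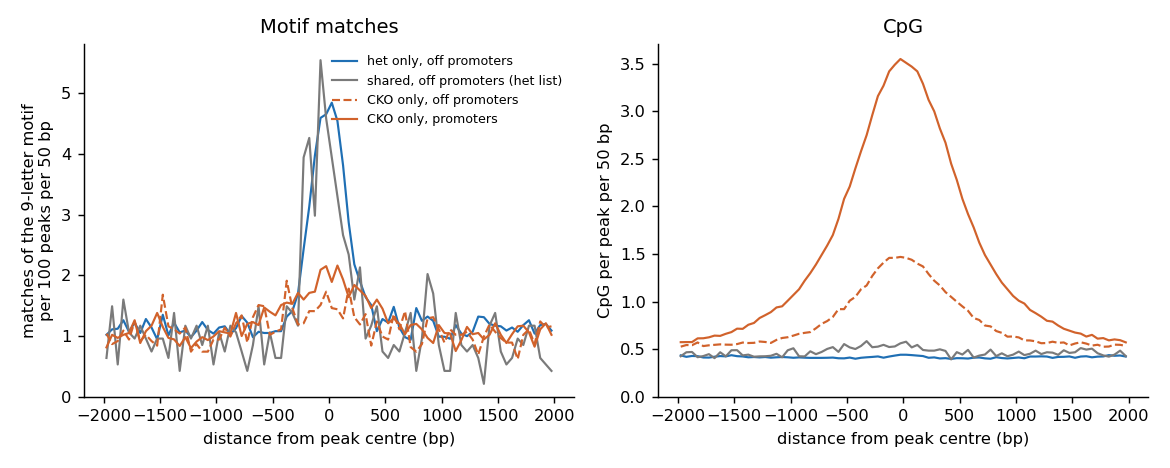
Matches of GNTGCTNCT per 100 peaks (left) and CpG per peak (right) in 50-bp bins by distance from the peak centre. Het-only and shared peaks off promoters have their highest match rates within 250 bp of the centre and a low CpG line; CKO-only peaks have a high CpG line, above all on promoters, and a low rise in matches.

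Along chromosomes the CKO breaks were the more clustered. The median distance from a centre to the next was 100268 bp (quartiles 39961 and 210614) in het and 62615 bp in CKO, yet 7.82% of CKO gaps and 5.32% of het gaps exceeded 500 kb. In 2454 windows of 1 Mb the mean was 5.98 het and 5.67 CKO peaks, the variance over the mean 2.07 and 4.85, and 114 and 345 windows were empty. Of these, 96 were empty in both lists. Windows ran from the first base of each autosome, and unsequenced ones, where no peak can be called, were not removed. Of the windows without a CKO peak 80 held 5 or more het peaks, and the reverse held for 2. Per Mb of assembly length, both lists were lowest in the first of 10 equal parts of the autosomes, at the centromere end. This part had 5.14 het and 4.12 CKO peaks per Mb. Assembly length includes unsequenced stretches, where no peak can be called, and their part in this low value was not tested. Both lists were densest near the other end, at 7.26 het peaks per Mb in the last part and 7.76 CKO peaks per Mb in the one before it. The longest gap of the CKO list, 5.82 Mb on chromosome 1 (chr1:112487793-118309749), has 9 protein-coding genes and 14 het peaks.

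Gene density went with the CKO count. Windows without a protein-coding gene had a mean of 1.2 ± 1.86 CKO peaks (SD, n = 325 windows) and 3.34 ± 2.81 het peaks, and windows with 30 or more had 11.0 ± 7.79 and 5.83 ± 3.40 (SD, n = 117 windows). Unsequenced windows, which hold neither genes nor peaks, count among those 325, and their part in the means and correlations was not tested. Over the windows, Pearson's r with the number of coding genes was 0.459 for CKO and 0.106 for het, and 0.502 between the lists; windows share chromosomes and mappability, and no p is given. By autosome the ratio of CKO to het peaks ran from 0.788 on chromosome 13 to 1.28 on chromosome 19. The densest window of both lists was chr9:123000001-124000000, with 34 het and 43 CKO peaks, and the second was chr4:155000001-156000000 (26 and 32). The third was chr8:46000001-47000000 for het (23, with 14 CKO) and chr7:127000001-128000000 for CKO (31, with 6 het), the latter with 57 coding genes.

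The end of chromosome 9 stood apart in both lists. From the start of that densest window to its end, chromosome 9 held 82 het and 76 CKO peaks, 72 and 45 of them shared, and the 3 widest shared peaks of each list. The widest of these in the het list, 15843 bp, is far from the median of that list (1999 bp); what such peaks stand for was not tested. The widest het-only peak had 6755 bp (chr12:30029491-30036245, intergenic, state 4) and the widest CKO-only peak 10786 bp (chr15:35292634-35303419, state 1, promoter of Osr2, a developmental transcription factor).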

How the data were processed

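DMC1 ChIP-seq peaks, ATAC-seq and H3K4me3 counts and the segmentation were analysed as deposited on mm10; CASAVA, BWA 0.7.15, Bowtie 0.12.9 and MACS 1.4.2 are named in the submitters' processing notes without their roles. Per the labels, the authors merged 2 DMC1 libraries per genotype into 1 list, with no score. The authors deposited raw read counts per region. Regions listed more than once were counted once, and 2 columns of the H3K4me3 table were not used because no label matches them. Total counts per library were 6416704 to 11352108 (Hells ATAC), 27952728 to 34572929 (C57BL/6J and knock-in ATAC) and 13321006 to 42007820 (H3K4me3); the depth of the DMC1 lists is unknown.

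Members and lists were chosen with earlier results of these data known. Overlaps of at least 1 bp were counted in Python 3.11.15 with GENCODE M21 starts, and intervals by the exact Clopper-Pearson method (scipy 1.17.1). Counts were tested with edgeR 4.0.16 (TMM, filterByExpr, quasi-likelihood test, Benjamini-Hochberg over all regions, threshold 0.05), with DESeq2 1.42.0 as an alternative; the count test was tested on simulated data. The H3K4me3 fit held all 7 libraries, since Hells wt has 1. Regions were counted as called only past that threshold. Replicate numbers of the C57BL/6J and knock-in libraries only name columns. Whether libraries of a group differ biologically or only technically is not stated, so p-values cover no more than their spread. Named regions are the 3 widest peaks per class, the 3 fullest 1-Mb windows per list, the 3 lowest p per class and direction in the ATAC and H3K4me3 fits (the text gives some), listed genes, and Prdm9, Hells, Dmc1 and Spo11. The F1 and H3K9ac tables were not used here. Sequences are from the RefSeq assembly GRCm38.p6. Some named items are not reported here.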

Additional observations from a re-analysis of the deposited data

How the results depend on the processing

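Directions were compared for named regions only, which were picked for their low p. The median ATAC log2 fold change, Hells CKO against wt, at CKO-only promoters ran from -0.237 to 0.03 over the settings. Among recomputed values that answer a comparison 96 stayed close to the reported value and 56 moved. Among those for named regions no sign changed, 137 kept their side of the threshold and 13 missed it. Shared peaks made up 1.91% of het and 2.02% of CKO peaks with an overlap over the larger part of both, 7.44% and 7.86% by centres within 500 bp, and 4.53% and 4.71% among peaks of at least the median width; by centres, the widest decile of het state 7 peaks had 52.4%. Promoter shares of het-only and CKO-only peaks were 8.92% and 65.7% with 500 bp, 17.0% and 69.4% with 2000 bp, 7.03% and 60.5% for protein-coding genes, and 6.21% and 64.5% by centre. With the state covering most bases, 40.1% of het peaks were in state 7, and 8.86% of het and 87.3% of CKO peaks in state 1 or 2. With single CKO libraries the lowest promoter decile had 2.48% (library 1) and the highest 84.6%, 77.6% and 74.5%. In the central 500 bp the motif was in 24.0% of het-only centres and 13.5% of CKO-only promoter centres. Leaving out 1 library each, ATAC regions lower in CKO numbered 0 to 267 at het-only sites, 0 to 278 at sites in both lists and 0 to 626 in all; the number series as a block, chosen from library names, gave 623, 377 and 1197. At CKO-only promoters, H3K4me3 was lower at 0 to 15 and higher at 0 to 1517 regions with 1 library left out, lower at 1 with library size alone, and higher at 4 with RLE and 516 with DESeq2. For the knock-in, leaving out 1 library gave 568 to 1703 at het-only sites, 0 to 2908 at CKO-only promoters and 1060 to 8439 in all; RLE and DESeq2 gave 23 and 38 at CKO-only promoters. Causes of these shifts were not tested. Library size alone, the 9-letter motif and the centre distance by width were chosen after seeing the data. No paired analysis was possible because the labels number no replicates; the block above uses the number series of library names, which no label ties to shared animals or days. Without score or replicate list, DMC1 differences have no error between animals; the wt arm of H3K4me3 is 1 library, the shallowest, and a lone library is assumed to vary like the other groups.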

Other observations

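On chromosome X, outside the comparison above, the het list held 1072 DMC1 peaks and the CKO list 727.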
